A study of Populus trichocarpa with 24 samples.

Results

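The shoot-tip-restricted loci of black cottonwood (Populus trichocarpa) were the 425 of 41335 counted loci that had at least 5 CPM in each of the 3 shoot tip libraries and a shoot tip mean at least 3 times the highest mean of leaf, phloem, primary root and stem xylem. CPM is a count scaled to a library total of 1000000, and it is not corrected for gene length. The rule used the values of the 15 tissue libraries, so these are described here without a test. RNA was sequenced from 8 groups of 3 libraries. The tissues were shoot tip (from the stem between the first and the third internode), leaf (young but fully expanded), phloem scraped from the inner bark, primary root and stem xylem scraped after the bark was taken off. The captures were fiber cells, vessel cells, and a mix of fiber, vessel and ray cells, cut from developing xylem by laser. The trees had grown in a greenhouse for 6 months under long days, while roots came from young seedlings kept in water although their label also gives 6 months. No genotype, treatment or transgene is given in the labels. RNA of the captures alone was amplified, so amplification and the difference between captures and tissues cannot be told apart. The labels do not say that replicates came from separate trees, and the spread behind each p-value is that between these libraries, which may be technical.

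In general a shoot tip holds the apical meristem, the dividing tissue that forms leaves, buds and stem, together with leaf primordia and the youngest internodes. Its surface cells lay down cuticle while organs are still unfolding, and its inner cells divide, expand and begin to form vascular strands. Which of these parts were in the samples, taken between the first and the third internode, was not checked. A shoot tip is a mixture of many cell types, and in bulk tissue a higher share of cells of a type and more RNA per cell cannot be told apart. The deposited table does not pair identifiers with gene names, and the reference used here matched 0 of 41335 identifiers. Loci are therefore given by identifier alone, no function is assigned to any of them, and the tissue labels were not checked against marker genes. Library totals ran from 5689642 to 30917688 counts in the tissues and from 8317935 to 18040299 in the captures. Any pair of replicates of a group differed by more than sampling noise, with a chi-square per degree of freedom of at least 5.5.

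The 425 loci were 2.41% of the 17639 loci that reached 5 CPM in each shoot tip library. Together they took 9.27%, 7.06% and 5.20% of the counts in shoot tip replicates 1, 2 and 3. The same loci took from 0.692% to 1.2% in leaf, from 0.290% to 0.405% in phloem, from 0.191% to 0.225% in root and from 0.214% to 0.237% in xylem. The shoot tip share was thus above that of every other tissue library, and it differed between the shoot tip libraries themselves. The median member had 39.2 CPM in shoot tip, with quartiles of 14.2 and 107 CPM. Of the members 111 had at least 100 CPM and 152 had less than 20 CPM. The 10 most abundant members supplied 42.7% of the summed level.

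**Figure D1:**
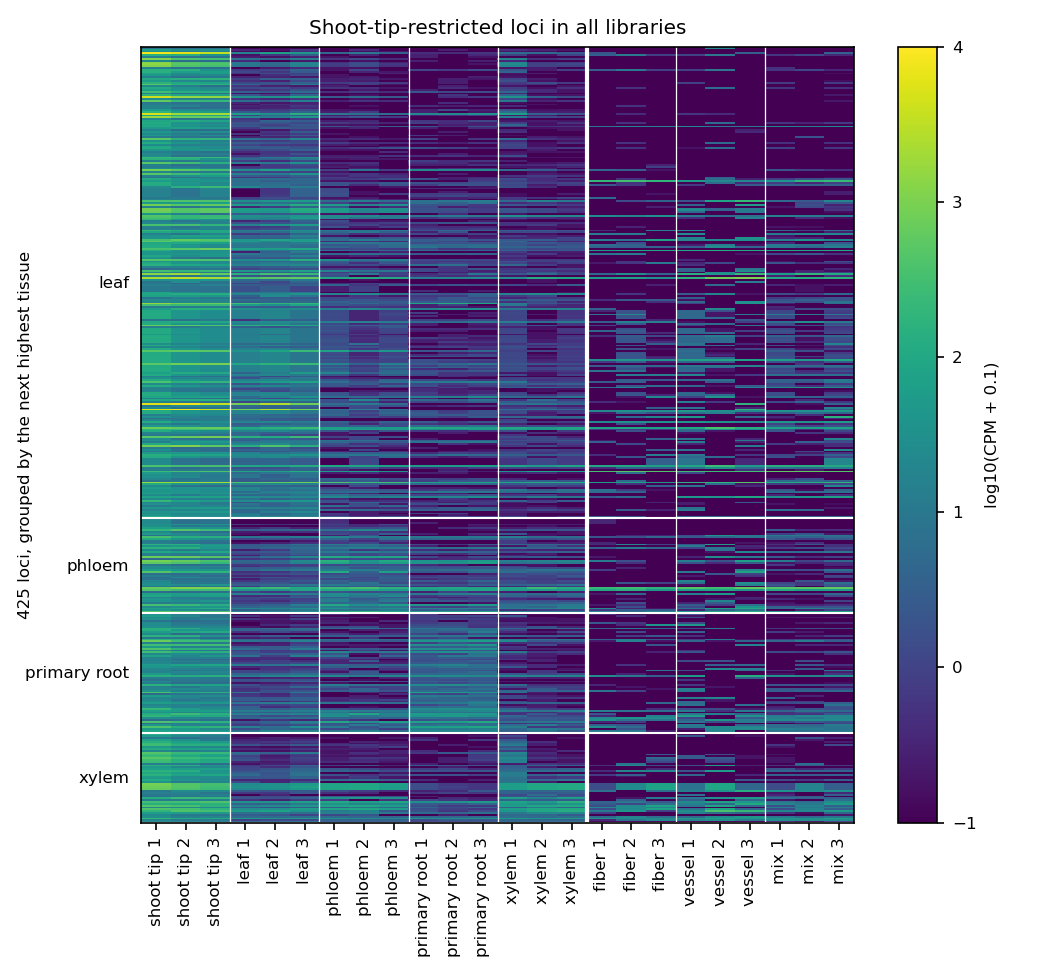
Level of each of the 425 shoot-tip-restricted loci (rows) in each of the 24 libraries (columns), as log10(CPM + 0.1), with rows grouped by the tissue of the next highest mean and ordered in each group by the ratio to it. Shoot tip columns are high throughout because the rule required it, leaf is the next highest tissue for 258 loci, xylem replicate 1 is brighter than replicates 2 and 3 for a set of rows, and most cells of the 9 capture columns lie at the bottom of the scale.

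The ratio of the shoot tip mean to the next highest tissue had a median of 5.38. It lay below 5 for 204 loci, between 5 and 10 for 91, and at 10 or more for 130, of which 35 reached 50 and 7 reached 100, counting the 1 locus with no count in the other tissues. In 423 of 425 members every shoot tip library lay above all 12 libraries of the other tissues. Over the 17639 loci at the 5 CPM floor this held for 7.09%, and since the rule chose on this contrast nothing is read from the count. The members closest to the threshold were Potri.013G138100, at a ratio of 3.01, and Potri.T008900, at 3.03. Just outside lay Potri.017G060300, at 2.97, and Potri.007G143800, also at 2.97. Potri.007G143800 had 171 ± 43.0 CPM in shoot tip and 57.6 ± 5.08 CPM in leaf (SD, n = 3 each), so the threshold divides loci of similar pattern.

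Leaf was the next highest tissue for 258 members, or 60.7%, primary root for 66, phloem for 52 and xylem for 49. Members with leaf next had a median ratio of 5.0, those with phloem next 5.17 and those with root next 5.34. Members with xylem next stood further from it, with a median ratio of 11.0. Without xylem replicate 1 only 29 members had xylem as the next tissue, so this group rests in part on that library.

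**Figure D2:**
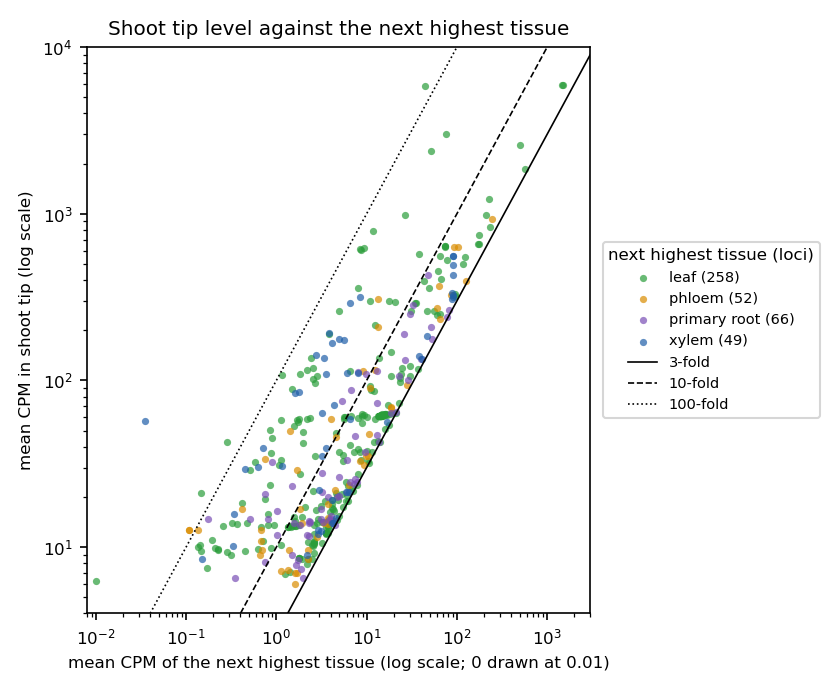
Mean CPM in shoot tip (vertical axis, log scale) against the mean CPM of the next highest tissue (horizontal axis, log scale, 0 drawn at 0.01) for the 425 loci, coloured by that tissue, with lines at 3, 10 and 100 times. Loci crowd along the 3-fold line that the rule set, and Potri.019G050200 stands apart as the locus with a mean of 5872 CPM beyond the 100-fold line.

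The most abundant members were Potri.013G080500 and Potri.013G082800. Potri.013G080500 had 5870, 8068 and 3723 CPM in the shoot tip libraries, against 855.5, 2788 and 799.9 CPM in the leaf libraries and at most 13.1 CPM in any phloem, root or xylem library. Potri.013G082800 had 5882, 8064 and 3702 CPM in shoot tip, against 869.7, 2759 and 784.5 CPM in leaf. The levels of these 2 loci were nearly the same in every shoot tip and leaf library, and leaf replicate 2 was the highest leaf library for both. They may not be 2 separate measurements, and both enter the summed level of the 10 most abundant members.

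Potri.019G050200 had the same abundance in shoot tip with far less in leaf. Its shoot tip libraries had 8203, 6095 and 3320 CPM, its leaf libraries 17.1, 73.2 and 43.6 CPM, and all phloem, root and xylem libraries were below 10 CPM. The ratio of 132 to leaf was the highest among the 8 most abundant members. Potri.003G176700 had 5026, 1873 and 2066 CPM in shoot tip, against 62.2, 30.2 and 135 CPM in leaf and 68.9, 3.65 and 1.80 CPM in xylem. Replicate 1 was the highest library of this locus in shoot tip and in xylem. Potri.001G191000 was more even, with 2292, 3250 and 2246 CPM in shoot tip against 343.8, 550.9 and 597.4 CPM in leaf, and it was also present in phloem at 105 ± 15 CPM and in xylem at 79.3 ± 46.2 CPM (SD, n = 3 each).

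Among members with at least 20 CPM in shoot tip, the ratio was largest for Potri.013G143600, with 113, 36.5 and 22.0 CPM in shoot tip and 2 counts in all other 12 tissue libraries together, both in xylem. Its ratio of 1649 to xylem therefore rests on those 2 counts, and the locus belongs to the block of neighbouring identifiers described below. Potri.011G076400 and Potri.011G076200 followed, at ratios of 151 and 143. Potri.011G076400 had 64.9, 30.8 and 31.9 CPM in shoot tip and at most 0.549 CPM in a leaf library. Potri.011G076200 had 31.7, 15.2 and 16.4 CPM in shoot tip and at most 0.366 CPM in leaf. Replicate 1 was again the highest shoot tip library for both, by about the same factor. Potri.019G005800, in another block of neighbours, had 151, 138 and 35.0 CPM in shoot tip against at most 2.93 CPM in leaf, a ratio of 93.8.

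Many members had another member nearby in identifier order, which follows the order of loci in the deposited table. Members were joined where they shared the chromosome number of the identifier, or the unplaced T series, and stood at most 10 table rows apart, a distance chosen after the table had been seen. In this way 230 members formed 51 groups of neighbours and 195 stood alone, which gives 246 units. Units may still not be separate measurements, since Potri.013G080500 and Potri.013G082800 fell in different units with nearly the same levels. Identifiers of the 013 series supplied 77 members, or 18.1% of the members against 3.91% of all loci, and those of the 019 series 49, or 11.5% against 3.24%. Of the 77, 57 were in the largest group described below, whose loci may not be separate measurements. Groups of 12 and of 18 members were among the 49. Both shares thus rest in part on a few groups. A neighbour was present for 54.1% of the members, and among loci restricted by the same rule to leaf (52.1% of 1039), xylem (53.8% of 898), phloem (42.0% of 414) or root (76.7% of 2603) the shares spanned a wide range. A larger set places more loci within 10 rows of each other, so sets of unlike size cannot be ranked by these shares. The share for loci drawn at random was not computed. Neighbouring shoot tip loci often had nearly the same counts. In 24% of members another member of the same group lay within 10% in each shoot tip library, against 7.60%, 3.62%, 3.53% and 3.01% for the loci restricted to leaf, phloem, root and xylem, each in its own tissue. The 24% were 102 members, and a large part of them came from 1 group. In that largest group, described below, 44 of 57 members lay within 10% of its median in every shoot tip library. The share without it was not computed. Over all 15 tissue libraries, 43 members (10.1%) had a partner within 10% or 3 counts in every library, against 306 (1.73%) of the 17639 loci at the floor. Many of the 43 were in the same largest group.

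The largest group ran from Potri.013G136300 to Potri.013G143800 and held 57 members among 76 consecutive loci. The 4 loci at its ends, Potri.013G136300, Potri.013G136400, Potri.013G143700 and Potri.013G143800, had from 1097 to 1424 CPM in shoot tip replicate 1, from 405.6 to 529.5 in replicate 2 and from 317 to 415 in replicate 3. All 72 loci between them had a shoot tip mean of at least 57.2 CPM, including the 19 that were not members because another tissue, leaf for 18 of them, was too high. Of these inner loci 53 were members. Their counts ran from 2010 to 2146 in replicate 1, from 343 to 407 in replicate 2 and from 230 to 310 in replicate 3. In replicate 1 the SD over the 53 loci was 1.2% of their mean, below the 2.20% that counting error alone gives for loci counted independently, and in replicate 2 it was 4.01% against 5.11%. In replicate 3 it was 6.22% against 6.04%. These SDs leave out the 19 inner loci that the rule did not keep, whose shoot tip means ran from 63.1 to 148 CPM.

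The level of the inner loci followed that of the end loci across shoot tip libraries, the end loci being 9.63, 10.1 and 12.2 times as high in replicates 1, 2 and 3. The same ratio was uneven in other tissues, at 0.556, 0.228 and 1.69 in the leaf libraries and 15.5, 5.25 and 1.43 in the xylem libraries. In leaf 35 of the 53 inner members lay between 13 and 17 CPM, a narrow band too. How reads were assigned to loci was not stated in the labels, so whether reads were counted at more than 1 locus was not tested, and the 53 loci may not be 53 separate measurements. Without them 372 loci remained.

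**Figure D3:**
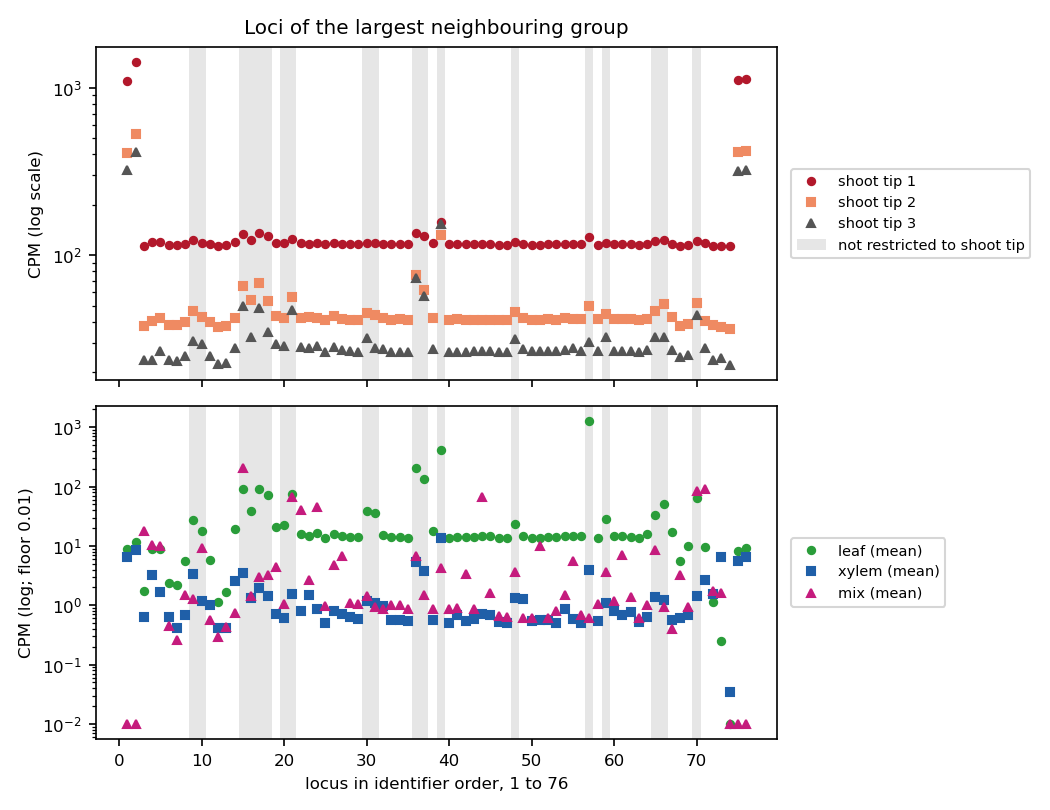
CPM (log scale) of the 76 consecutive loci of the largest group in identifier order, with the 3 shoot tip libraries above and the means of leaf, xylem and mix below, where values under 0.01 are drawn at 0.01 and grey bands mark the 19 loci that are not restricted to shoot tip. The 4 end loci stand about 10 times above a nearly flat inner level in each shoot tip library. Leaf, xylem and mix span a wider range over the inner loci, although leaf lies between 13 and 17 CPM for 35 of the 53 inner members.

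Other groups had a similar form. From Potri.019G005400 to Potri.019G006600 12 of 13 loci were members: the first had 491 CPM and the next nearly as much in shoot tip replicate 1, and the other 10 lay between 151 and 161 CPM there, between 138 and 146 in replicate 2 and between 35.0 and 42.5 in replicate 3. Replicates 1 and 2 of these 10 were thus close and replicate 3 was low, unlike the pattern of the 013 group. From Potri.019G026900 to Potri.019G029100 18 of 23 loci were members. The first 3 of these had 843, 740 and 854 CPM in shoot tip replicate 1, and Potri.019G028800 had 349 CPM. The remaining members of that group had from 15.2 to 37.5 CPM there, and 11 of the 18 lay within 10% of the group's median in every shoot tip library. Potri.T055600, in the unplaced series, matched Potri.019G026900 and Potri.019G027100 within 10% or 3 counts in every tissue library, with 867, 466 and 586 CPM in shoot tip.

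From Potri.008G184000 to Potri.008G184900 9 of 10 loci were members. Potri.008G184000, Potri.008G184400 and Potri.008G184900 had 158, 189 and 283 CPM in shoot tip replicate 1, whereas the other 6 lay between 24 and 26.9 CPM. From Potri.001G011400 to Potri.001G013000 10 of 17 loci were members, with a median of 24.7, 7.23 and 5.36 CPM in shoot tip replicates 1, 2 and 3, close to the 5 CPM floor in the last. In the unplaced series, Potri.T000300 to Potri.T001000 held 7 members of 8 loci, with medians of 225, 112 and 71.6 CPM in shoot tip and at most 1.52 CPM as the highest leaf mean of any of them. Xylem replicate 1 stood out there, with a median of 9.89 CPM against 0.146 and 0.082 CPM in xylem replicates 2 and 3.

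Members varied more between the shoot tip libraries than other loci did. The coefficient of variation over the 3 libraries had a median of 41.3% for members, with quartiles of 24.6% and 61.9%, against a median of 16.6% over the 17639 loci at the floor. For the 195 members without a neighbour it was 35.7%. Replicate 1 was the highest shoot tip library for 315 members (74.1%), replicate 3 for 68 and replicate 2 for 42, against 46.0%, 33.7% and 20.3% of the loci at the floor. In 146 members (34.4%) replicate 1 was at least 2 times as high as both others, against 3.71% of the loci at the floor. These 146 included all 57 members of the largest block, which may not be separate measurements. The 146 formed 64 units, and 45 of the 195 members without a neighbour (23.1%) were among them. Replicate 2 stood 2 times above both others in 1 member and replicate 3 in 0. Since the mean enters the rule, a locus high in 1 library could pass through it, and the share of such loci is given as a description.

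The spread between libraries was largest in Potri.001G048800, with 213, 55.2 and 31.2 CPM in shoot tip against 24.4, 29.3 and 32.1 CPM in root. Shoot tip replicate 3 of this locus lay within the range of root, so it was 1 of the 2 members whose libraries overlapped. Potri.010G146200 had 44.7, 15 and 5.55 CPM in shoot tip against at most 2.76 CPM in leaf. At the other end, Potri.013G051100 had 219, 213 and 216 CPM in shoot tip, against 2.0, 10.5 and 24.6 CPM in leaf and at most 0.245 CPM in any phloem, root or xylem library. Potri.016G065700 had 8.94, 8.93 and 9.09 CPM in shoot tip against 2.29, 1.90 and 2.38 CPM in xylem. Both were even across shoot tip libraries and did not overlap with any other tissue.

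A shift of replicate 1 was also present in xylem. In 73 members (17.2%) xylem replicate 1 had at least 1 CPM and at least 2 times the level of both other xylem libraries, against 1.07% of the loci at the floor. This held for 52 of the 146 members in which shoot tip replicate 1 was high in the same way (35.6%), and for 21 of the other 279 (7.53%). The 52 formed 25 units and 20 of them belonged to the largest block, all of whose members were among the 146. Its 53 inner members had a median of 1.14 CPM in xylem replicate 1, close to the limit of 1 CPM. Both shares thus depend on loci that may not be separate measurements. Among the members without a neighbour 15 had both. Potri.008G212300, for example, had 4143, 1552 and 1471 CPM in shoot tip and 37.4, 3.43 and 1.31 CPM in xylem. The labels do not say that libraries of the same number shared a tree, a day or a run, and whether they did was not tested.

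The captures were not used by the rule, and there few of the loci were seen. They were cut from developing xylem, however, and the rule limited the level of members in xylem tissue. Low detection in the captures is therefore not independent of the rule and is given as a description. A locus was taken as detected where each of the 3 libraries of a group had at least 1 CPM. The fiber libraries had 39 of 425 detected (9.18%), those of vessel 49 (11.5%) and those of the mix 78 (18.4%). Over all loci the detected share was 33.5% for fiber, 25.8% for vessel and 48.8% for the mix, and over loci at the floor in shoot tip 65.6%, 53.9% and 85.8%. Detection of the members was thus below the background in all 3 capture groups. With each group of neighbours counted once the fiber libraries had 26 of 246 units, vessel 36 and the mix 56. In xylem tissue, which was not amplified, 103 members (24.2%) were detected, against 91.7% of the loci at the floor, but that tissue entered the rule.

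**Figure D4:**
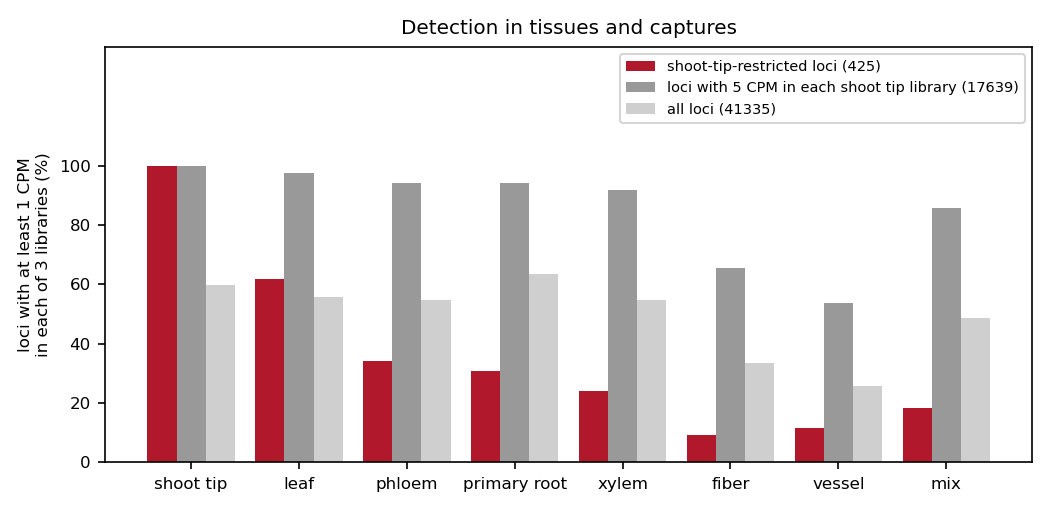
Share of loci with at least 1 CPM in each of the 3 libraries of a group (vertical axis, percent) for the 425 shoot-tip-restricted loci, the 17639 loci with at least 5 CPM in each shoot tip library, and all 41335 loci. In fiber, vessel and mix the shoot-tip-restricted loci reach 9.18%, 11.5% and 18.4%, below both other bars.

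Loci restricted to other tissues by the same rule had other shares. In fiber 13.5% of phloem-restricted, 20.2% of root-restricted and 24.3% of leaf-restricted loci were detected, against 78.7% of xylem-restricted loci. In vessel these shares were 23.7%, 14.1%, 20.9% and 63.1%, and in the mix 31.9%, 40.0%, 45.5% and 89.1%. The shoot tip loci had the lowest share in each capture group. This order is a description, since loci of a block may not be independent and no test was made of it.

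Of the members 125 had no count in any of the 9 captures and 31 were at 1 CPM or more in all 9. No count over the 3 libraries was found for 231 members in fiber, for 202 in the vessel libraries and for 152 in the mix. The summed level of the members was 1805, 2597 and 2350 CPM in the fiber libraries, 3152, 5060 and 5799 CPM in the vessel libraries and 2638, 3096 and 3678 CPM in the mix. The fiber libraries were the lowest group, without overlap with vessel or the mix. A few loci carried these sums, the 5 highest supplying 48.8% of the fiber sum, 40.5% of the vessel sum and 47.3% of the mix sum. In vessel 30 members had at least 10 CPM in 1 library and less than 1 CPM in both others, against 10 in fiber and 10 in the mix, those of the mix all in its replicate 3. Potri.013G080500 was among those of vessel, with 0, 0 and 181 CPM. Vessel replicates also differed most among the captures, with a chi-square per degree of freedom of at least 182, against at most 110 in fiber and the mix. Shares over all loci are not given for these counts or for the members without a count. Nothing particular to the members is read from them.

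A few members were high in all captures. Potri.001G307200 had 340.5, 527 and 460 CPM in fiber, 294, 263 and 317 CPM in vessel and 566, 592 and 460 CPM in the mix. Its shoot tip libraries had 239.7, 323 and 404 CPM and its xylem libraries 37.1, 93.5 and 62.6 CPM. The fiber and vessel libraries of this locus overlapped with shoot tip, the mix lay above it, and all captures lay above the xylem tissue libraries. Potri.011G142300 had 225, 286 and 176 CPM in fiber, 459, 284 and 639.9 CPM in vessel and 465, 508 and 597 CPM in the mix, against 666, 1143 and 981 CPM in shoot tip and 81.8, 229.9 and 121 CPM in xylem.

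Potri.010G150900, also among the 5 highest in captures, had 54.9, 70.5 and 43.7 CPM in fiber, 159.8, 201 and 439 CPM in vessel and 111, 127 and 169.8 CPM in the mix, against 1630, 1925 and 1997 CPM in shoot tip and 84.5, 105 and 110.5 CPM in xylem. Potri.002G022600 had 218, 304 and 194 CPM in fiber, 52.7, 20.6 and 18.6 CPM in vessel and 41.9, 194 and 233 CPM in the mix, while the xylem libraries had 0.832, 0.365 and 0.164 CPM and the shoot tip libraries 59.2, 43.7 and 43.0 CPM. In 15 members the mean of at least 1 capture group was above the shoot tip mean, namely 5 for fiber, 9 for vessel and 11 for the mix. The share over all loci is not given, and nothing is read from this count. Of the largest block, 5 inner members had a mean of at least 10 CPM in every capture group, and Potri.013G143300 was the highest of them, with 70.6 ± 18.2, 107 ± 14.6 and 90.9 ± 19.1 CPM in fiber, vessel and mix (SD, n = 3 each). Its neighbour Potri.013G143400 had no count in fiber or vessel. In shoot tip the neighbours were closer, with 118, 40.2 and 27.8 CPM for Potri.013G143300 and 114, 38.2 and 23.5 CPM for Potri.013G143400. Amplification of the captures alone cannot be told apart from a difference between cells and tissue, so no test was made between them.

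Fiber, vessel and mix captures were compared with each other on all 22828 loci that passed a filter on low counts over the 9 captures, of which 161 were members, in 86 units. The other 264 members had too few counts, and a member could pass through the group in which it was high, so the counts below describe those 161 only. For fiber against vessel 6 of 161 members were called (3.73%), against 6.03% of all tested loci, where a call needed a log2 fold of 1 or more in either direction and an adjusted p (edgeR's quasi-likelihood test, Benjamini-Hochberg) under 0.05. Of these 2 were higher in fiber, where the background was 2.86%, and 4 were lower, where it was 3.17%. Other methods called more loci of both kinds. DESeq2, with an adjusted p for 136 members, called 35 of them (25.7%), against 20.1% of all loci with one. Of these 10 were higher in fiber (7.35%, against 9.23%) and 25 lower (18.4%, against 10.8%). An edgeR fit of all 24 libraries, in which all 425 members passed the filter through their tissue counts, called 82 (19.3%), against 29.2% of 31819 loci. Of these 16 were higher in fiber (3.76%, against 13.8%) and 66 lower (15.5%, against 15.4%). The members' share was thus below the background in both edgeR fits and above it with DESeq2, and nothing particular to the members is read from it. The log2 fold was negative for 120 and positive for 41 of the tested members, with a median of -1.42 against 0.00 over all tested loci. Many inner loci of the largest block had the same counts in captures, so these are not the signs of 161 separate loci. Signs were not counted by unit or over all loci, and nothing is read from them.

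Potri.001G191000, present in every library, was lower in fiber, with 52.4, 69.0 and 34.6 CPM in fiber against 169.8, 805 and 1019 CPM in vessel. Its log2 fold was -3.57 ± 0.59 (SE, edgeR adjusted p = 0.0073), the groups did not overlap, and the mix lay between 104 and 168 CPM. Potri.001G240600 had 4.57, 28.8 and 4.22 CPM in fiber against 139, 41.9 and 238 CPM in vessel. Its log2 fold of -3.41 ± 0.90 had an edgeR adjusted p of 0.04998, and the call was lost without fiber replicate 1 or 3, vessel replicate 1 or 3 or any 1 library of the mix. The other 2 loci lower in fiber had log2 folds of -2.15 and -2.46.

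Potri.002G022600 was higher in fiber, at a log2 fold of 3.04 ± 0.63 (SE, edgeR adjusted p = 0.020), with all fiber libraries above all vessel libraries at the values given above. This call was lost, at edgeR adjusted p-values from 0.060 to 0.068, without fiber replicate 1 or 2 or vessel replicate 2 or 3. Potri.016G066300 had 21.6, 25.1 and 15.7 CPM in fiber and no count in any vessel library, with an edgeR adjusted p of 0.012. Taking 3 counts over the vessel group as the limit that a count of 0 allows, which covers counting error only, it was at least 239-fold higher in fiber. Its mix libraries had 12.2, 10.4 and 12.6 CPM, between fiber and vessel.

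**Figure D5:**
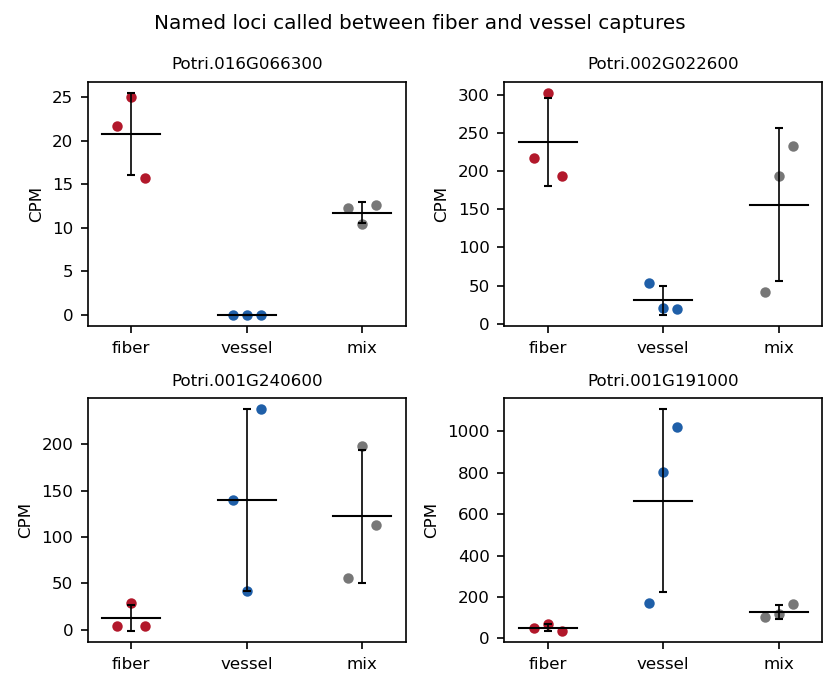
CPM in the 3 libraries of fiber, vessel and mix captures for the 4 named loci called between fiber and vessel, with points for libraries, horizontal bars for means and error bars for the SD (n = 3). Potri.016G066300 and Potri.002G022600 are higher in fiber, Potri.001G240600 and Potri.001G191000 are lower in fiber, and the groups fiber and vessel do not overlap in any of the 4.

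Against the mix, 0 of 161 members were called in fiber and 0 in vessel by edgeR. The background was 0.364% for fiber against the mix (0.092% higher and 0.272% lower in fiber) and 0.0175% for vessel against the mix, so a count of 0 is what these tests gave for nearly all loci. An unadjusted edgeR p below 0.05 was found for 12 members in fiber against the mix (7.45%, against 10.7% of all tested loci) and for 18 in vessel against the mix (11.2%, against 12.7%). For fiber against the mix DESeq2 called 3 of 113 members, or 2.65% against 5.12% of all loci. Higher in fiber were 0 (background 1.09%) and lower 3 (background 4.03%). For vessel against the mix it called 10 of 136 members, or 7.35% against 6.64%. Higher in vessel were 4 (2.94%, background 1.99%) and lower 6 (4.41%, background 4.65%). The fit of all 24 libraries called 28 of 425 members for fiber against the mix, or 6.59% against 12.6% of all loci. Higher in fiber were 4 (background 1.86%) and lower 24 (background 10.7%). For vessel against the mix it called 65, or 15.3% against 18.9%. Higher in vessel were 31 (7.29%, background 4.71%) and lower 34 (8.0%, background 14.2%). The median log2 fold of the tested members was -0.51 for fiber against the mix, where it was -0.14 over all tested loci, and 0.81 for vessel against the mix, where it was -0.11. The 3 comparisons share libraries, so these medians are not independent of each other, and loci of a group of neighbours may repeat the same counts in them.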

How the data were processed

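A single deposited table held the authors' raw counts, whole numbers without normalization, for each locus and 24 libraries. TopHat is named as a tool, per the submitters' processing notes. Its version, the counting tool, strand setting, genome build and annotation: not given in the sources used here. Every column matched 1 sample title, 0 columns were left over and 0 rows held something other than a locus. Members and lists were chosen with earlier results of these data known, and the product-name lists could not be applied, since no identifier matched the reference.

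CPM was computed from unscaled library totals. Captures were tested in R 4.3.3 with edgeR 4.0.16 (filterByExpr, TMM, robust quasi-likelihood fit of the 9 captures, common biological coefficient of variation 111%), with Benjamini-Hochberg adjustment over 22828 loci. DESeq2 1.42.0 was an alternative, in which loci without an adjusted p were left out. Standard errors were derived from the fold and its F statistic. Figures were drawn with matplotlib 3.10.9.

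Named loci are the 5 highest in shoot tip, by ratio to the next tissue (at least 20 CPM) and in captures, those nearest the threshold, the 2 most and the 2 least variable in shoot tip, the 2 strongest called in each direction, and groups of neighbours. Loci inside groups, Potri.008G212300, Potri.T055600 and the grouping of neighbours were chosen after values were seen.

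Same-numbered captures did not deviate together (correlations from -0.01 to 0.06 in 9 pairs), so the numbers were not taken as pairs.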

Additional observations from a re-analysis of the deposited data

How the results depend on the processing

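The 425 loci became 297 on TMM-scaled CPM, 578 at a floor of 1 CPM, 316 at a floor of 10 CPM, 703 with a ratio of 2, 221 with a ratio of 5 and 246 with each group of neighbours counted once. Of these units 139 held a member with leaf next, and a unit could count under more than 1 tissue. In the other settings the next tissue was recounted over the same 425 members, not over the changed sets. Root was next for 40 members on TMM-scaled CPM, against 66. Leaving out 1 library gave from 353 to 454 loci under the rule. Among the 425 members leaf was then next for 221 to 275, phloem for 43 to 65, root for 62 to 70 and xylem for 29 to 69. At 5 CPM, fiber had 22 detected members, vessel 30 and the mix 45. With 1 library left out fiber had 40 to 58, vessel 54 to 75 and the mix 83 to 108. Leaving out a library cannot lower these counts, since detection needs every library of the group. The summed level with 1 library left out ran from 2077 to 2474 CPM in fiber, from 4106 to 5429 CPM in vessel and from 2867 to 3387 CPM in the mix, and was 1831 CPM in fiber with each group counted once. For fiber against vessel, DESeq2 called 10 of 136 members higher in fiber (7.35%, against 9.23% of all loci) and 25 lower (18.4%, against 10.8%). A fit of all 24 libraries called 16 of 425 higher (3.76%, against 13.8%) and 66 lower (15.5%, against 15.4%). With the replicate block, a fit with the replicate number as a term, 2 members were higher and 3 lower in fiber. With 1 library left out, 1 to 2 were higher and 2 to 6 lower. For fiber against the mix, DESeq2 called 0 higher and 3 lower, and the fit of all libraries 4 and 24. For vessel against the mix, DESeq2 called 4 higher and 6 lower, the fit of all libraries 31 and 34, and leaving out 1 library 0 to 1 higher and 0 lower. The cause of these differences was not tested. For DESeq2 and the fit of all libraries, the shares over all loci against the mix are given with each comparison above. Such shares are not given for the replicate block or with 1 library left out. Loci in a group of neighbours may not be separate measurements, and zeros in captures limit what can be seen there.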
